A study of Mus musculus with 13 samples.

Results

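The 6 genes described here, H2-Aa, H2-Ab1, H2-Eb1, H2-DMa, Cd74 and Ciita, belong to the MHC class II pathway of antigen presentation. They were chosen by name from the gene lists of the Parse Biosciences (Parse) single-cell libraries, where each of the 6 symbols was found among 57010 genes. Their unique molecular identifiers (UMIs, molecules counted once each) were summed in B cells, dendritic cells, macrophages and neutrophils, and in T-lineage cells as the background. The class of a cell was set by counts of fixed markers, none of which is a class II gene or Ciita. The Parse WT library held 20 tissue samples from 9 sublibraries, and the smaller Parse Mini library held 4 from 2 sublibraries.

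For the Mini samples, T-1-A, T-1-B, T-2-A and T-2-B, the labels name thymus, and the study used lobes of 2 female C57BL/6N mice aged 2 months, untreated as far as its methods say. Which of the number and the letter names the mouse is not stated. Of the 20 WT samples, 4 are named tenxP with a number from 1 to 4 in the cell table and are called thymic samples 1 to 4. No label gives their organ, which was inferred from these names, their 41838 cells and their thymocyte markers. The study describes its main Parse samples as lobes of 2 further such mice. The other 16 were loaded in the same kit, and the study calls them unrelated and not thymic. The labels of the WT sublibraries name thymus and spleen, and control and chronic stress, only for the pool, so the organ, strain, age and treatment of each of the 16 samples are not given beyond that. They are called the other samples here and carry their names in the table (CVS_C, CVS_S and YD_C with a number). Since no label sets thymic against other samples, their values are given side by side without a test. Organ, mouse strain, age and treatment cannot be told apart in that comparison. Where Mini samples are set beside the other samples, the kit, the library and its sequencing cannot be told apart from these either.

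MHC class II molecules carry peptides to the cell surface for recognition by CD4+ T cells. H2-Aa and H2-Ab1 encode the alpha and beta chains of I-A, and H2-Eb1 encodes the beta chain of I-E. Cd74, the invariant chain, fills the groove of new molecules on their way to the endosome, where H2-DM, of which H2-DMa encodes the alpha chain, helps to exchange its last fragment for a peptide. Ciita is the transactivator that switches these genes on in B cells, dendritic cells and, after stimulation, macrophages. It does not bind DNA itself but docks on factors that sit on the X and Y boxes of class II promoters. In the thymus, class II on epithelium, dendritic cells and B cells takes part in the selection of CD4+ thymocytes.

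In promoters of the members and of their partner H2-DMb1, the beta chain of H2-DM, short patterns of these boxes were searched for. Each stretch is the 150 bases before the gene start in RefSeq on GRCm38.p6, 5′ to 3′ on the strand of the gene. Capitals mark TGATTGG, the core of the Y box, and AACNNATG, a core of the X box, both searched on both strands and chosen after the promoters had been seen.
H2-Eb1: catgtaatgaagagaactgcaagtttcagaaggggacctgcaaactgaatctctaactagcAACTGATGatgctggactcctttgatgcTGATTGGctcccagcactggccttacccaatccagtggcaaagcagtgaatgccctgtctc
H2-Aa: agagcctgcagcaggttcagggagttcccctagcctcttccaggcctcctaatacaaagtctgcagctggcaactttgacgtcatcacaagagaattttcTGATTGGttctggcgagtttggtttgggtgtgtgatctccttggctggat
H2-DMb1: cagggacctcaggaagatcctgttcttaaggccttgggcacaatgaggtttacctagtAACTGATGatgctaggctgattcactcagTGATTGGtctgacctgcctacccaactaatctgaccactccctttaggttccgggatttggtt
H2-DMa: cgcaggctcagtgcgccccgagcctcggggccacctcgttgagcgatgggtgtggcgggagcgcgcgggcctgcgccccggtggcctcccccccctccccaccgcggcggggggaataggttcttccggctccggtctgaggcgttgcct
These stretches are H2-Eb1 at chr17:34305717-34305866 on the plus strand, H2-Aa at chr17:34287824-34287973 on the minus strand, H2-DMb1 at chr17:34153041-34153190 and H2-DMa at chr17:34122682-34122831, both on the plus strand. H2-Eb1 held both cores, the Y box 61 and the X box 89 bases before its start. H2-DMb1 held both at nearly the same places, 63 and 92 bases before. Of the 2 patterns H2-Aa held the Y box core, 50 bases before its start. A promoter without this X box core may still hold an X box of another form, which was not searched for. H2-DMa has 2 start sites in the table, and neither of its windows of 300 bases held a core. The window that holds the stretch shown has 73% G and C and lies close to the start of Brd2 on the opposite strand, and the second window has 39%. Of 32851 promoter windows of 300 bases in the same table, 7.82% held the Y box core, 8.86% the X box core and 0.785% both. H2-Ab1, Cd74 and Ciita have no entry in this table.

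On GRCm38 the 4 H2 genes lie close together on chromosome 17 (H2-DMa 34119541 to 34139101, H2-Ab1 34257689 to 34269419, H2-Aa 34282744 to 34287823 and H2-Eb1 34305867 to 34316674), Cd74 on chromosome 18 and Ciita on chromosome 16. H2-DMa shares bases with Brd2 on the opposite strand and with 3 further gene models, and Ciita shares bases with Dexi on the opposite strand. H2-Eb1 overlaps the antisense gene Gm20513, and Cd74 overlaps the miRNA gene Mir5107. How the counts were given to overlapping genes is not stated in the sources used here.

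After filters on cells (500 to 25000 UMIs and at most 15% mitochondrial UMIs) there were 81396 cells in the other samples, 39369 in the thymic WT samples and 19273 in the Mini samples. UMIs per tissue sample ranged from 5405078 to 91172408, from 30450786 to 124106974 and from 28057164 to 33264104. A cell joined a class with at least 3 different markers of its list and at least 2 times as many as of any other list. The other samples gave 43349 B cells, 609 dendritic cells, 912 macrophages, 1832 neutrophils and 16423 T-lineage cells. The thymic WT samples gave 256, 61, 12, 12 and 38521 cells of these classes, and the Mini samples 42, 36, 14, 1 and 19020. No thymic epithelial cell passed the rule in any sample, so the class II of thymic epithelium was not measured here. Levels are given as CPM, UMIs of a gene scaled to 1e+06 UMIs outside ribosomal RNA, and 95% intervals are exact Poisson intervals that cover counting error only.

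The sums of the marker lists separated the classes. The sum of the B cell list was 7809 to 18268 CPM in B cells of the other samples and 340 to 689 CPM in their T-lineage cells. The dendritic list summed to 3971 to 7944 CPM in dendritic cells and 88.0 to 205 CPM in B cells. Macrophages were less clean, with 7107 to 17208 CPM of their own list beside 350 to 1510 CPM of the B cell list and 1212 to 3386 CPM of the dendritic list. No doublet caller was run, and 8736 cells of the other samples with markers of several lists stayed outside the classes, as did 304 of the thymic WT and 105 of the Mini samples. In the thymic WT samples such cells held 723 H2-Aa UMIs, more than the 188 in B cells and the 294 in dendritic cells. Of 103602 three-well barcode combinations in the WT library, 19867 occurred in more than 1 sublibrary, and 3012 combinations occurred in both kits.

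Some libraries stood apart. The B cells of thymic samples 1 and 2 held UMIs of H2-Ea, the I-E alpha chain, which is not transcribed in mice of the H2-b haplotype such as C57BL/6. In B cells of the other samples H2-Ea was 217 CPM at the lowest, 289 at the median and 341 at the highest, and in the Mini samples it had 0 UMIs in every class. Among 72159003 UMIs of Mini thymocytes, a count of 0 allows up to 0.0416 CPM, taking 3 UMIs as the limit. The T-lineage cells of the 4 thymic WT samples held 406 H2-Ea UMIs, with 2.22 to 3.22 CPM in each sample and 27.7 to 77.4 for each 100 H2-Aa UMIs. The B cells of thymic sample 1 had 201 CPM (39 UMIs, in 33 of 175 cells), those of sample 2 had 110 CPM (6 UMIs, in 4 of 42 cells), those of sample 3 had 26.5 CPM (1 UMI) and those of sample 4 had none. The thymic WT dendritic cells had 1 H2-Ea UMI among 283095. B cells were also 4.41% of the cells in thymic sample 1 and 0.360, 0.199 and 0.141% in samples 2 to 4. The thymic B cell levels below are therefore also given without the cells that held an H2-Ea UMI, and the counts over samples without samples 1 and 2. Leaving out such cells removes a part of the H2-Ea-expressing cells only. In CVS_C_1, with 252 CPM of H2-Ea at a median of 1462 UMIs in a B cell, 31.7% of B cells held a UMI of it. Among the other samples, the B cells of CVS_S_5 had 72.0 CPM of the complement receptor Cr2 and 570 CPM of the costimulatory gene Cd86, where the other 15 had 239 to 1148 and 87.7 to 211 CPM.

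**Figure D1:**
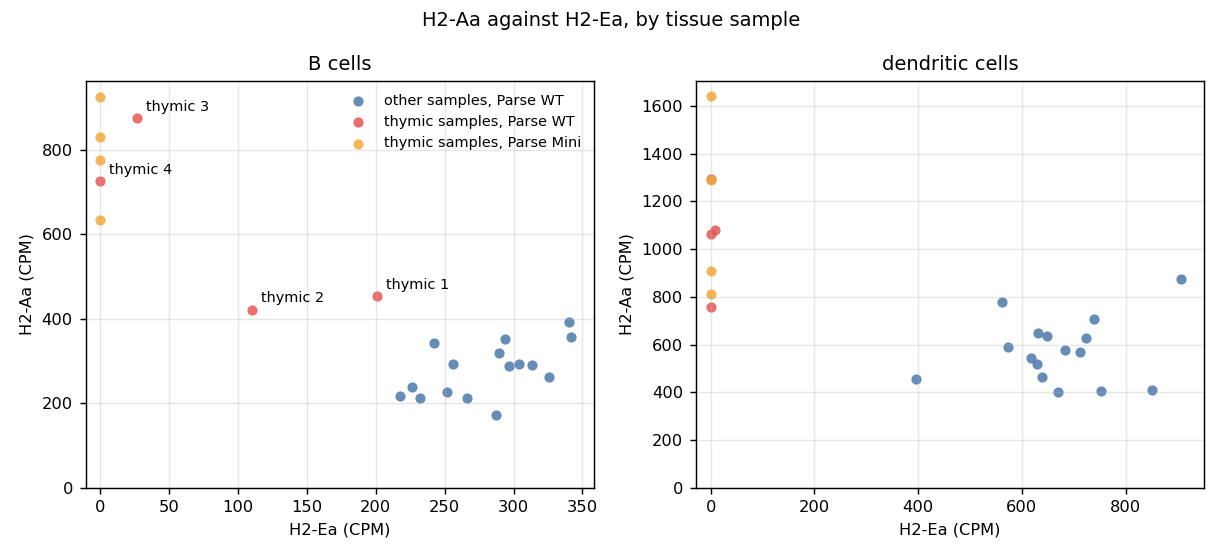
H2-Aa against H2-Ea, both in CPM, in B cells and in dendritic cells, 1 point for each tissue sample, with the thymic samples marked. All Mini points lie at 0 H2-Ea, the other samples at 217 CPM or more in B cells, and the B cells of thymic samples 1 and 2 at 201 and 110 CPM.

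T-lineage cells were used as the background because mouse T cells and thymocytes do not carry class II. H2-Aa in T-lineage cells was 3.71 CPM at the lowest, 10.6 at the median and 23.6 at the highest of the other samples, 3.68 to 8.09 CPM in the 4 thymic WT samples and 1.54 to 4.77 CPM in the Mini samples. Cd74 was 29.6, 50.5 and 91.3 CPM in the other samples, 14.6 to 27.3 CPM in the thymic WT samples and 6.56 to 14.5 CPM in the Mini samples. Ciita was 7.92, 22.7 and 40.0 CPM, 6.71 to 10.1 CPM and 2.30 to 5.99 CPM. The background of Cd74 was thus lower in each of the 4 thymic than in each of the 16 other samples, the only member for which this held, where 7.58% of 17898 genes did the same. B cells were 32.7 to 77.8% of the cells in the other samples and 0.141 to 4.41% in the thymic ones, and their part in the background was not tested.

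Set against the level over every cell of the same sample, the H2-Aa of T-lineage cells was 2.14 to 12.1% in the other samples, 20.7 to 58.5% in the thymic WT samples and 19.7 to 37.9% in the Mini samples. For Ciita these shares were 1.97 to 18.8%, 25.3 to 73.4% and 18.4 to 46.0%. H2-DMa was the exception. Its T-lineage level was 35.5 to 122% of the level over every cell in the other samples, 93.9 to 98.9% in the thymic WT samples and 96.6 to 99.0% in the Mini samples. In thymocytes it was 11.3 to 15.2 CPM (WT) and 13.4 to 17.6 CPM (Mini), close to its level over the whole thymus. Whether reads of the overlapping Brd2 were counted in it was not tested. Across 117 class profiles of 24 samples, the correlation of H2-DMa with the mean of the 6 members was r = 0.649, and that of the other 5 members was 0.951 to 0.972. The profiles share libraries and cells of 1 sample, so these are descriptions.

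**Figure D2:**
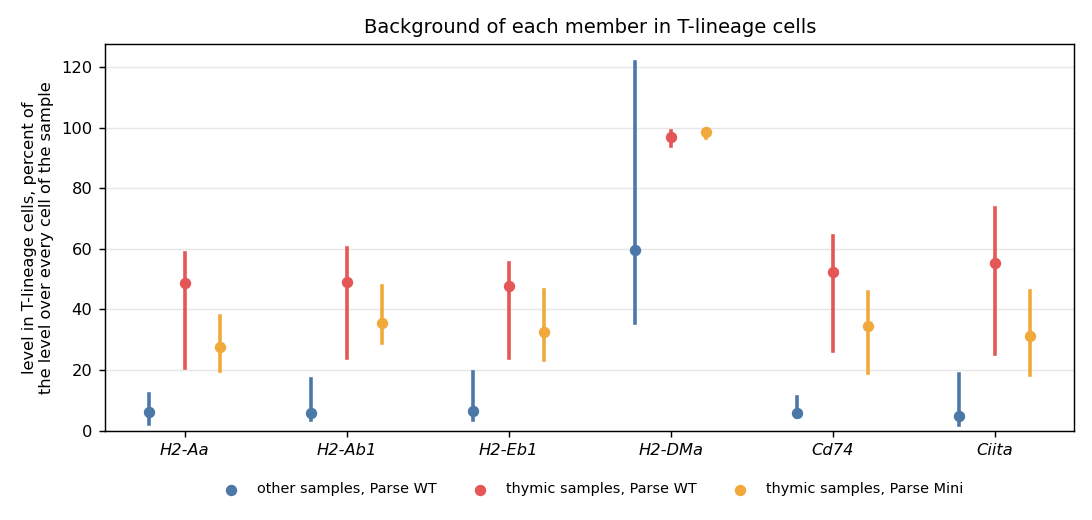
The level of each member in T-lineage cells as a percent of its level over every cell of the same sample, with the median as a point and the range over samples as a line, for the 3 sets of samples. H2-DMa lies near 100% in both thymic sets, with 93.9 to 99.0%, and the other 5 members reach at most 73.4% there. The level over every cell includes the T-lineage cells, which are 91.8% or more of cells in the thymic sets and 33.3% or less in the other samples.

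B cells held each member above this background, H2-DMa by the least. Over all B cells of the other samples H2-Aa was 259 CPM, 24.4 times the T-lineage level, H2-Ab1 was 346 CPM (23.9 times), H2-Eb1 was 411 CPM (28.2 times) and Cd74 was 1235 CPM (25.5 times). H2-DMa was 53.6 CPM, 2.15 times the T-lineage level, and 4.11 (WT) and 4.75 times (Mini) that level in the thymic samples. Per kilobase of exon, Cd74 was highest among the 6 with 736 CPM, and H2-Eb1 had 211, H2-Ab1 135, H2-Aa 68.1, Ciita 64.6 and H2-DMa 15.5 CPM per kilobase. The study reports many unspliced transcripts in its Parse data, and exon length does not allow for them. Their part in this order was not tested. Between first-round wells of 1 sample, the highest B cell well was 1.16 (Ciita) to 1.37 times (H2-DMa) the lowest at the median over samples, and up to 2.09 times for H2-Ab1.

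H2-Aa was 172 CPM at the lowest (CVS_C_3), 289 at the median and 392 at the highest (YD_C_4) of the 16 other samples. It was 453, 422, 876 and 727 CPM in thymic samples 1 to 4 and 830, 634, 925 and 776 CPM in Mini samples T-1-A, T-1-B, T-2-A and T-2-B. All 8 thymic samples thus lay above all 16 others. For the 7 of them with at least 10 B cells, 0.4% of 17256 genes did the same. Samples 3 (19 cells) and 4 (20 cells) lay above samples 1 and 2, whose B cells held H2-Ea. Without the cells that held an H2-Ea UMI, 218 of 256 cells were left, and the 4 thymic WT values were 522, 447, 892 and 727 CPM. All reads were counted on an mm10 reference. Whether the H2 haplotype of a sample changed its counts of H2-Aa, H2-Ab1 and H2-Eb1 was not tested. This limit holds for every comparison of these genes with the other samples below, and for ratios made with them.

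The beta chains were less clear. H2-Ab1 was 288, 339 and 471 CPM (lowest, median and highest) in the other samples, and 505, 403, 1274 and 892 CPM in thymic samples 1 to 4. H2-Eb1 was 263, 449 and 572 CPM in the other samples, and 366, 697, 1061 and 908 CPM in the thymic WT samples. Each had 1 of the 4 thymic WT samples within the range of the others, sample 2 for H2-Ab1 and sample 1 for H2-Eb1. Without the cells with an H2-Ea UMI, samples 1 to 3 had 460, 427 and 1297 CPM of H2-Ab1, and sample 1 too lay inside the range. For H2-Eb1 they then had 416, 738 and 1081 CPM. In the Mini samples H2-Ab1 was 634 to 830 CPM and H2-Eb1 was 718 to 1126 CPM, above all 16 other samples. In the 3 Mini samples with at least 10 B cells, 3 of 6 members (H2-Aa, H2-Ab1 and H2-Eb1) lay above all others, as did 2.41% of 17239 genes.

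Cd74, the invariant chain, was 922, 1220 and 1816 CPM in the other samples, and 1221, 1155, 2813 and 1454 CPM in thymic samples 1 to 4. Only sample 3 left the range of the others. Without the cells with an H2-Ea UMI, samples 1 to 3 had 1286, 1184 and 2864 CPM. In the Mini samples Cd74 was 2075, 1669, 2011 and 2159 CPM. H2-DMa in B cells was 36.7 to 71.8 CPM in the other samples and 49.6 to 55.0 CPM in the thymic WT samples, within the same range, or 49.6 to 58.3 CPM without the cells with an H2-Ea UMI. In 3 Mini samples it was 48.5 to 63.8 CPM, and in T-1-A, with 8 B cells, 178 CPM.

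Ciita in B cells was 287 CPM at the lowest (CVS_S_5), 693 at the median and 984 at the highest (YD_C_4) of the other samples, where the next lowest sample had 474 CPM. Thymic samples 1 to 4 had 1020, 679, 849 and 1173 CPM, and the Mini samples had 1304, 1374, 1340 and 946 CPM. Samples 1 and 4 and 3 of the 4 Mini samples lay above all others. Without the cells with an H2-Ea UMI, samples 1 to 3 had 1069, 718 and 865 CPM. Pooled over all cells the thymic B cells held 1.58 (WT) and 1.99 times (Mini) the Ciita of the other B cells. For H2-Aa these ratios were 2.09 and 2.97, for H2-Ab1 1.85 and 2.03, and for H2-Eb1 1.43 and 2.05. For Cd74 they were 1.15 and 1.58, and for H2-DMa 0.968 and 1.36. Thymic sample 1 gave 175 of the 256 WT cells pooled here. The pooled WT cells had 974 CPM of Ciita, 542 of H2-Aa, 640 of H2-Ab1 and 588 of H2-Eb1. Without the cells with an H2-Ea UMI they had 1007, 594, 639 and 645 CPM. Cd74 and H2-DMa went from 1424 and 51.9 CPM to 1490.5 and 54.8 CPM.

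Counted over WT samples with at least 20 B cells (3 thymic, 16 other), 1 of 6 members, H2-Aa, was higher in every thymic than in every other sample, as were 1.35% of 17249 genes with at least 50 UMIs. No member was lower, against 13.8% of genes. The 3 thymic samples held 54526 to 194182 B cell UMIs outside ribosomal RNA, and the 16 others 1452790 to 32885671. At this depth a gene with few UMIs can have none in the thymic B cells, like Ctsl below, and count as lower. The part of depth in the 13.8% was not tested, so nothing is read from it for the members. With at least 10 B cells, when thymic sample 3 joined, H2-Aa was again the 1 member higher, against 0.812% of genes. No member was again lower, and the 11.9% of genes that were have the same limit of depth. The count moves with the library left out, and so does the share of all genes. It was 3 (H2-Aa, H2-Ab1 and Ciita) without sample 2, beside 3.61% of genes, and 2 (H2-Aa and H2-Eb1) without sample 1, beside 4.47%. Without both it was 4 (H2-Aa, H2-Ab1, H2-Eb1 and Ciita), when sample 4 alone remained and 14.7% of genes were higher.

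Shares of cells with a UMI followed depth as well as level. An H2-Aa UMI was found in 49.4% of the other B cells (median 3049 UMIs), 28.1% of the thymic WT B cells (median 1031) and 76.2% of the Mini B cells (median 3027). Among T-lineage cells the shares were 2.04% (median 2431), 1.59% (median 3358) and 0.494% (median 2713). With each cell thinned to 1000 UMIs, the B cell shares were 20.3%, 26.3% and 44.7%, from 39810 of 43349, 140 of 256 and 39 of 42 cells. The thymic WT share, lowest of the 3 at full depth, was then above that of the other samples. The thinned shares of T-lineage cells were 0.737, 0.395 and 0.146%. A Ciita UMI was found in 68.9, 59.0 and 88.1% of B cells at full depth and in 38.7, 51.0 and 65.0% of thinned ones.

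**Figure D3:**
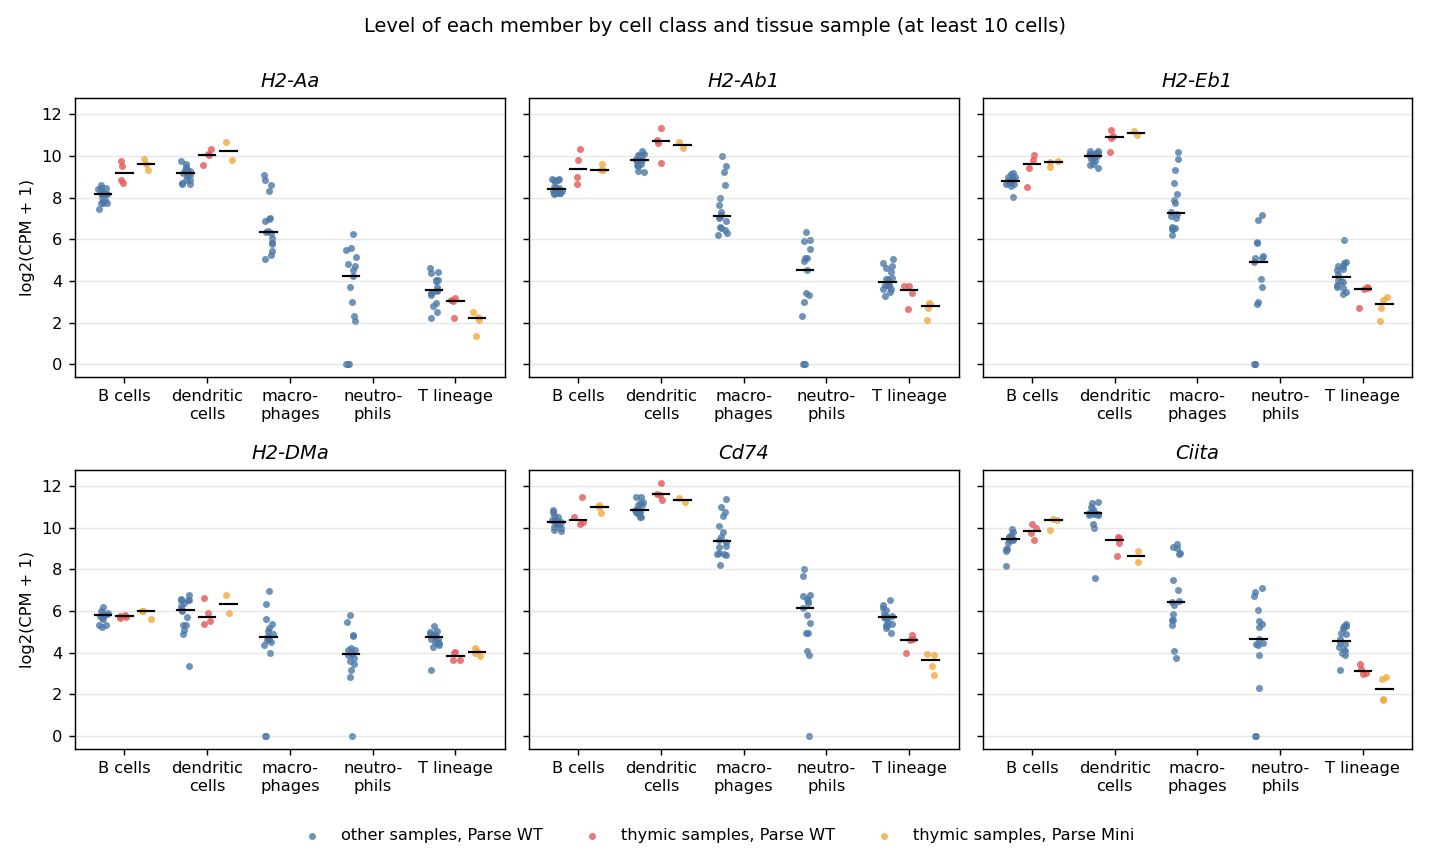
Level of each member on the log2(CPM + 1) scale, 1 point for each tissue sample with at least 10 cells of the class, in 5 classes and 3 sets of samples, with the median as a black line. Dendritic and B cells stand above T-lineage cells at the median, by the least for H2-DMa, macrophages of the other samples spread widely, and Ciita of thymic dendritic cells lies below that of nearly all other dendritic cells.

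Dendritic cells, the professional presenters of antigen, held the highest class II levels. Over all dendritic cells of the other samples H2-Aa was 601 CPM, H2-Ab1 917 CPM, H2-Eb1 1011 CPM and Cd74 2009 CPM, which were 2.32, 2.65, 2.46 and 1.63 times the B cell levels. Set within a sample, H2-Aa, H2-Ab1, H2-Eb1 and Cd74 were each higher in dendritic cells than in B cells in 16 of 16 other samples. In the thymic WT samples this held in 4 of 4 for each of these genes, and in the Mini samples in 4 of 4 except for H2-Aa, with 3 of 4. H2-DMa was higher in 11 of 16 other samples, at a median ratio of 1.07, in 2 of 4 thymic WT samples (median 0.978) and in 1 of 4 Mini samples (median 0.844).

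H2-Aa in dendritic cells was 402, 575 and 877 CPM (lowest, median and highest) in the 16 other samples, each with 14 cells or more. It was 755, 1062, 1295 and 1079 CPM in thymic samples 1 to 4, with 12, 12, 16 and 21 cells. In the Mini samples, with 6 to 11 cells each, it was 1642, 812, 908 and 1290 CPM. Thymic samples 2 to 4 and 3 of the 4 Mini samples lay above all others, and thymic sample 1 lay inside their range.

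H2-Eb1 was also higher in most thymic samples, with 687, 1035 and 1226 CPM in the other samples and 1170, 2426, 1972 and 1842 CPM in thymic samples 1 to 4. The Mini samples had 2080, 1852, 2342 and 3122 CPM, all above the others. H2-Ab1 was 603, 904 and 1207 CPM in the other samples, and 815, 1764, 2629 and 1597 CPM in the thymic WT samples. Its Mini values, 1300 to 2001 CPM, also lay above all others. In the 2 Mini samples with at least 10 dendritic cells, 3 of 6 members (H2-Aa, H2-Ab1 and H2-Eb1) were above all others, as were 5.86% of 6640 genes.

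Cd74 was 1454, 1826 and 2885 CPM in the other dendritic cells and 3051, 3187, 4601 and 2615 CPM in the thymic WT ones. Thymic samples 1 to 3 lay above the others, and sample 4 inside their range. In the Mini samples Cd74 was 2737, 2567, 2371 and 5796 CPM. H2-DMa was 9.28 to 110 CPM in the other dendritic cells and 40.1 to 96.5 CPM in the thymic WT ones, without a shift.

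Ciita went the other way. In dendritic cells it was 192 CPM at the lowest (CVS_S_5, 14 cells), 1664 at the median and 2398 at the highest of the other samples, and 1025 CPM or more in each of the 15 without CVS_S_5. Thymic samples 1 to 4 had 755, 621, 735 and 404 CPM, and the Mini samples had 328, 1105, 468 and 1028 CPM. All 4 thymic WT samples and 2 of the 4 Mini samples lay below those 15. For the thymic WT samples against those 15, 3.1% of 6876 genes did the same, and Ciita was the 1 member. CVS_S_5, which lay below all 4 thymic WT samples, was left out after the data were seen, so this count follows from that choice. With all 16 other samples no member was lower. Pooled over cells, the other dendritic cells held 2.93 times the Ciita of the thymic WT cells and 2.20 times that of the Mini cells. At equal depth of 1000 UMIs a Ciita UMI was found in 63.2% of the other dendritic cells (79.0% unthinned), 30.2% of the thymic WT ones (62.3%) and 38.1% of the Mini ones (63.9%). An H2-Aa UMI was found in 35.5% of the thinned cells (67.0%), 48.6% (85.2%) and 59.3% (83.3%). The median dendritic cell had 3670, 5553 and 4081 UMIs in the 3 sets. At full depth the T-lineage cells of the 3 sets held a Ciita UMI in 3.48, 2.52 and 0.615%.

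With at least 20 dendritic cells, only thymic sample 4 entered the comparison with 15 other samples. Its H2-Aa, H2-Ab1, H2-Eb1 and H2-DMa were above all of them, as were 8.77% of 6646 genes, and its Ciita was below all of them, as were 16.5%. With at least 10 cells (4 thymic, 16 other), 0 members were higher and 0 lower, against 1.52 and 1.92% of 6929 genes. Thymic sample 1 lay inside the range of the other samples for H2-Aa, H2-Ab1 and H2-Eb1, and CVS_S_5 lay below all thymic samples for Ciita.

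The opposite shifts changed the ratio of the transactivator to its target genes. Ciita UMIs per 100 UMIs of H2-Aa, H2-Ab1 and H2-Eb1 together were 68.2 at the median of the other dendritic cells, with a range from 10.0 (CVS_S_5) to 106. Thymic samples 1 to 4 had 27.6, 11.8, 12.5 and 8.93, and the Mini samples had 6.16, 27.9, 10.2 and 16.04. In B cells the ratio was 26.5 to 81.1 (median 61.9) in the other samples, 77.0, 44.6, 26.4 and 46.4 in thymic samples 1 to 4, and 39.4 to 69.1 in the Mini samples. The B cell ratios of the 3 sets overlapped. Invariant chain UMIs per 100 chain UMIs in dendritic cells were 63.8 to 98.4 in the other, 57.9 to 111 in the thymic WT and 51.4 to 90.4 in the Mini samples.

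**Figure D4:**
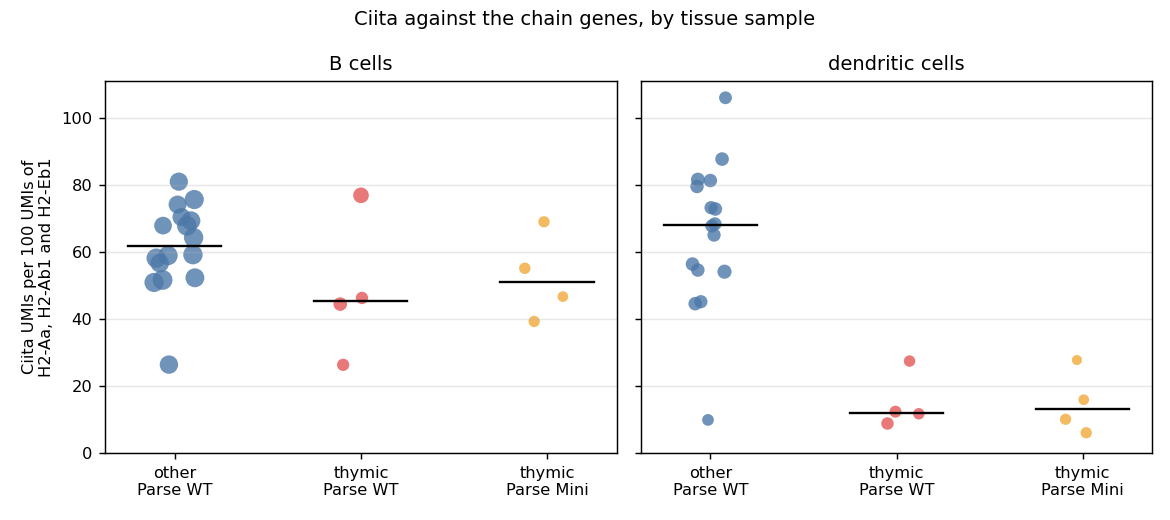
Ciita UMIs per 100 UMIs of H2-Aa, H2-Ab1 and H2-Eb1 in B cells and dendritic cells, 1 point for each tissue sample, with point area growing with the number of cells and the median as a line. The dendritic medians are 68.2 in the other, 12.1 in the thymic WT and 13.1 in the Mini samples, and those of B cells are 61.9, 45.5 and 51.0.

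Within samples, Ciita was higher in dendritic cells than in B cells in 15 of 16 other samples, with ratios from 0.669 (CVS_S_5) to 3.98 and a median of 2.38. Without CVS_S_5 it was higher in 15 of 15, with ratios of 1.505 to 3.98. In thymic samples 1 to 4 the ratio was 0.741, 0.916, 0.865 and 0.344, higher in none. In the Mini samples it was 0.252, 0.804, 0.349 and 1.09, higher in 1 of 4. H2-Aa over the same pairs of classes was 1.52 to 3.31 in the other and 1.48 to 2.52 in the thymic WT samples.

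Dendritic cells are of several kinds, which listed markers separate. A split after the data were seen took cells by the markers they held most of, Xcr1 and Clec9a with their group (the cross-presenting kind) or Fscn1, Ccl22 and others that rise when dendritic cells mature. Ccr7, a receptor of migrating dendritic cells outside the lists, was 12.2 CPM in the Xcr1-type and 436 CPM in the Fscn1-type cells of the other samples. It was 0 and 1748 CPM in the thymic WT cells and 0 and 2524 CPM in the Mini cells. There were 222, 31 and 18 cells of the Xcr1 type and 250, 20 and 12 of the Fscn1 type in the other, thymic WT and Mini samples. In a further 131, 7 and 4 cells no group of markers was ahead, and their Ciita was 2027, 309 and 673 CPM. Another 6, 3 and 2 cells held mostly Cd209a or Clec10a, with 1286, 0 and 1400 CPM of Ciita. The Fscn1 type did not hold like cells in the 3 sets. A Ccr7 UMI was found in 30%, 60% and 91.7% of its cells, and Ccl22 over all dendritic cells was 6.15, 110 and 569 CPM. The part of these markers in differences between the sets was not tested.

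Pooled over cells, Ciita was below the level of the other samples in the thymic cells of either type. In Xcr1-type cells it was 1832 CPM (95% interval 1748 to 1919) in the other samples, 777 CPM (646 to 927) in the thymic WT and 1029 CPM (818 to 1277) in the Mini samples. In Fscn1-type cells it was 1415 CPM (1338 to 1495), 413 CPM (286 to 577) and 142 CPM (46.0 to 331). By sample with at least 5 cells, Xcr1-type cells ranged from 190 to 3350 CPM in 16 other samples (median 1689) and had 451, 551 and 1038 CPM in 3 thymic WT and 591 and 1282 CPM in 2 Mini samples, all inside that range. Fscn1-type cells ranged from 672 to 2264 CPM in 15 other samples and had 90.9 and 462 CPM in 2 thymic WT and 72.0 and 297 CPM in 2 Mini samples, all below that range, as were 4.92% of 3737 genes. The ranges of the 2 types do not cover the same other samples, so they are not set against each other.

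The chains were higher in the Xcr1 type in each set. H2-Eb1 in Xcr1-type cells was 1156 CPM in the other, 2369 in the thymic WT and 3200 CPM in the Mini samples, and in Fscn1-type cells 861, 1250 and 1191 CPM. Cd74 was 2380, 3854 and 4367 CPM in the Xcr1 type, and 1653, 2172 and 1333 CPM in the Fscn1 type. For H2-Aa the Xcr1-type cells held 719, 1226 and 1431 CPM and the Fscn1-type cells 488, 886 and 908 CPM. H2-Ab1 was 1224, 2205 and 1895 CPM in the Xcr1 type. In the Fscn1 type it was 664, 680 and 737 CPM, so that there the 3 sets lay close together. These pooled values have no test over samples.

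**Figure D5:**
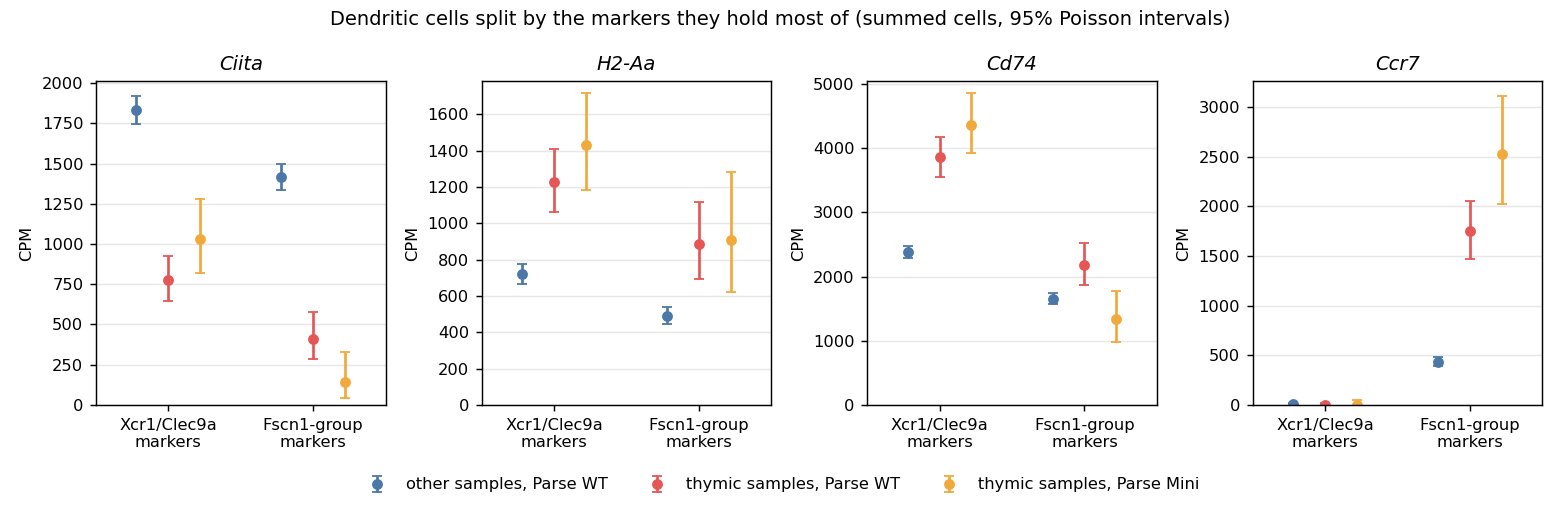
Pooled CPM of Ciita, H2-Aa, Cd74 and Ccr7 in dendritic cells with mostly Xcr1-type and with mostly Fscn1-type markers, by set of samples, with 95% exact Poisson intervals that cover counting error only. Ciita is highest in the other samples in either type (1832 and 1415 CPM), and H2-Aa is lowest there (719 and 488 CPM).

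Macrophages of the other samples held little class II in most samples and much in some. H2-Aa was 31.96 CPM at the lowest (CVS_S_5, 4 UMIs), 81.7 at the median and 545 at the highest (CVS_S_6). CVS_C_1, CVS_C_4 and CVS_S_4 followed with 317, 453 and 386 CPM, and the remaining 12 samples had at most 130 CPM. These 4 samples also held much Ciita, with 511, 541, 422 and 599 CPM in CVS_C_1, CVS_C_4, CVS_S_4 and CVS_S_6, against a median of 86.2 CPM. CVS_S_1, with 130 CPM of H2-Aa, had 442 CPM of Ciita (17 UMIs). Cd74 ranged from 296 to 2627 CPM, with a median of 657 CPM. In the 4 samples with the most H2-Aa the dendritic list summed to 1212 to 2362 CPM, the B cell list to 350 to 749 CPM and the macrophage list to 7107 to 11035 CPM. In the other 12 they summed to 1678 to 3386, 703 to 1510 and 9905 to 17208 CPM. Some single markers moved too. The adhesion gene Vcam1 was 950, 1092 and 1236 CPM in CVS_C_1, CVS_C_4 and CVS_S_4 and 1704 CPM or more in the other 13. Spic, a factor of red pulp macrophages, was 341, 285 and 223 CPM in these 3 and 509 CPM or more in the others. The protease Ctss was highest in the same 3 samples, with 1193, 1299 and 856 CPM beside at most 719 CPM elsewhere. CVS_S_6, with the highest H2-Aa, had 2261 CPM of Vcam1, 599 CPM of Spic and 640 CPM of Ctss. The complement gene C1qa was 600, 747 and 872 CPM in CVS_C_4, CVS_S_4 and CVS_S_6, and 484 CPM or less in the other 13. The part of other cells or of another kind of macrophage in these values was not tested.

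The 12 thymic WT macrophages, at most 6 in a sample, held 644 CPM of H2-Aa, 1307 CPM of Cd74 and 215 CPM of Ciita. Thymic sample 4 gave 30 of the 33 H2-Aa UMIs and 10 of the 11 Ciita UMIs, and without it the 6 cells left held 151, 504 and 50.4 CPM. The 14 Mini macrophages held 279, 1348 and 69.7 CPM. T-2-A gave 11 of the 12 H2-Aa UMIs and all 3 Ciita UMIs, and without it the 9 cells left held 32.2 and 1190 CPM of H2-Aa and Cd74. The pooled macrophages of the other samples held 108, 739 and 125 CPM. With so few thymic cells these are values of the pooled cells, with no comparison over samples.

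Neutrophils, which kill microbes and are not known as presenters of antigen at rest, held class II near the background. Over 1832 neutrophils of the other samples H2-Aa was 22.5 CPM, H2-Ab1 29.3, H2-Eb1 37.4, H2-DMa 15.0, Cd74 82.3 and Ciita 41.2 CPM. H2-Aa and Cd74 were 2.12 and 1.70 times the T-lineage levels. In 14 samples with at least 20 neutrophils H2-Aa was 0 to 74.6 CPM with a median of 19.8, and Cd74 was 0 to 254 CPM. An H2-Aa UMI was found in 2.57% of neutrophils (median 1527 UMIs), beside 2.04% of T-lineage cells (median 2431). With cells thinned to 1000 UMIs the shares were 1.47 and 0.737%. The B cell list summed to 140 to 711 CPM in these neutrophils, and its part was not tested. The 12 thymic WT neutrophils held 0 UMIs of all 6 members among 18495 UMIs, which at 3 UMIs allows up to 162 CPM of each.

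Classes were tested against each other in the Mini samples, which the labels give as thymus. No such test was run in the WT samples. Counts of thymocytes (4 samples), B cells (3 samples) and dendritic cells (2 samples) with at least 10 cells were fitted with edgeR's quasi-likelihood test, with the sample as a block, over 1836 genes. The samples are lobes of 2 mice, and only T-2-A entered with both B cells and dendritic cells. With 3 residual degrees of freedom, the p-values rest mostly on a spread shared across genes, not on each gene's spread between lobes. If the letter names the mouse, as in the study's names of its main samples, the dendritic samples T-1-A and T-2-A came from the same mouse. H2-DMa did not pass the filter on low counts.

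The other 5 members are at 1.54 to 14.5 CPM in Mini thymocytes and passed the filter through B cells or dendritic cells, so that their direction against thymocytes was set by passing. The differences from thymocytes are therefore given as sizes, and nothing is read from 25.9% of genes being higher in B cells and 24.8% in dendritic cells. In B cells against thymocytes the log2 differences with their SE were 7.92 ± 0.36 for H2-Aa, 6.91 ± 0.35 for H2-Ab1, 6.94 ± 0.33 for H2-Eb1, 7.44 ± 0.25 for Cd74 and 8.30 ± 0.35 for Ciita. No p-value is given for these 5, since the filter set their direction. Adjusted p-values further below are by the Benjamini-Hochberg method. The median over all genes was -0.13. With no filter the 5 differences were log2 6.55 to 7.94. In dendritic cells against thymocytes the differences were log2 8.48 ± 0.43 for H2-Aa, 8.18 ± 0.38 for H2-Ab1, 8.61 ± 0.34 for H2-Eb1, 7.88 ± 0.29 for Cd74 and 6.58 ± 0.57 for Ciita, and log2 6.04 to 8.06 with no filter.

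Dendritic cells against B cells divided the members. H2-Eb1 was higher in dendritic cells by log2 1.67 ± 0.36 (edgeR adjusted p = 8.49e-05) and H2-Ab1 by 1.26 ± 0.40 (adjusted p = 0.0101), where 14.3% of genes were higher. Ciita was lower at log2 -1.72 ± 0.47 (edgeR adjusted p = 0.00215), where 13.7% of genes were lower. H2-Aa (0.56 ± 0.43, edgeR adjusted p = 0.375) and Cd74 (0.45 ± 0.30, adjusted p = 0.291) did not pass the threshold. This contrast rests on few cells, and some calls were lost with at least 4 markers. Its dendritic samples T-1-A and T-2-A had 328 and 468 CPM of Ciita. T-1-B and T-2-B, left out with 6 and 8 cells, had 1105 and 1028 CPM, 0.804 and 1.09 times their B cells. The pooled Ciita of all Mini dendritic cells was 0.636 times that of B cells. Without T-2-A, which leaves 1 dendritic sample, Ciita was at log2 -2.54 with an edgeR adjusted p of 0.0689, and none of the 3 calls held. Without T-1-A, which also leaves 1 dendritic sample, it was at -1.04 (edgeR adjusted p = 0.151), and without the factor between marker lists it was at -0.89 (adjusted p = 0.0828).

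The pathway has 23 further listed genes: the other H2 chains, the DNA-binding factors, the endosomal proteases and reductase, the ubiquitin ligases, costimulatory genes and the class I transactivator Nlrc5. In Mini 10 passed the filter, most of them, like the members, through B cells or dendritic cells, so that their number higher than in thymocytes is not given. Between dendritic and B cells Nlrc5 was called higher in dendritic cells, where 14.3% of genes were. The ligase Marchf1, which removes class II from the surface, was called lower, where 13.7% of genes were. H2-DMb2 and H2-Ob were at 54.9 and 68.6 CPM in Mini dendritic cells and 292 and 329 CPM in B cells. They passed the filter through B cells alone, so that their direction was set by passing. Their log2 differences, -4.26 ± 1.38 and -4.28 ± 1.29, are given as sizes only. H2-Ob encodes the beta chain of H2-O, the inhibitor of H2-DM. In the other samples H2-DMb2 was 241, 358 and 440 CPM (lowest, median and highest) in B cells and 115, 197 and 307 CPM in dendritic cells. H2-Ob was 63.9, 173 and 274 CPM in B cells and 37.1, 102 and 170 CPM in dendritic cells.

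Between thymic and other B cells, H2-Eb2 was the 1 listed gene higher in every thymic sample with at least 20 cells, and H2-Ea and Ctsl were lower. These are 1 and 2 of 23 listed genes, beside 1.35 and 13.8% of all genes, where the 13.8% has the limit of depth given above. Ctsl had 0 UMIs in the thymic B cells and 0.517 to 3.91 CPM in the others, a difference that is not detectable at the depth of the thymic cells. H2-Eb2 was 5.87, 18.2 and 41.2 CPM in the other samples and 51.5 to 182 CPM in the 3 thymic ones. Cd86 was 87.7, 132 and 570 CPM in the other B cells and 242, 385, 849 and 842 CPM in thymic samples 1 to 4, with CVS_S_5 the only other sample above 211 CPM. In dendritic cells with at least 10 cells a sample, Cd86 was higher in every thymic sample and H2-Ea was lower, 1 and 1 of 18 listed genes with at least 50 UMIs, beside 1.52 and 1.92% of all genes. The factor Rfx5, which binds the X box, was 27.7, 49.2 and 69.5 CPM in the other B cells.

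In T-lineage cells, Ctsl, the protease that trims the invariant chain in thymic epithelium, was 0 to 7.33 CPM in the other samples and 23.2 to 25.2 CPM in the thymic WT samples. Nlrc5 was 374, 737 and 835 CPM in the other T-lineage cells and 79.4 to 136 CPM in the thymic WT ones. In all, 9 of 23 listed genes were lower and 2, Ctsl and Nfyb, higher in every thymic sample, against 7.58 and 8.98% of all genes. Rag1, the recombinase of immature thymocytes, was 746 to 1042 CPM in the thymic WT samples and 5.57, 13.4 and 193 CPM (lowest, median and highest) in the others.

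Outside the marker lists, the genes most like the mean of the 6 members over the 117 class profiles were Fgd2 (r = 0.894), H2-DMb1 (0.881), H2-Ea (0.879), Ifi30 (0.875) and Ly86 (0.847), followed by Pld4, Irf5, Cd180, Wdfy4 and Pkib with 0.822 to 0.833. These were ranked among 13942 genes with at least 500 UMIs. H2-DMb1 in B cells was 84.3, 190 and 236 CPM in the other samples.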

How the data were processed

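Cells of mouse thymus and further tissue samples had been fixed and barcoded in rounds of wells with the Parse WT and Parse Mini kits. The authors deposited UMI counts per cell and gene, made with split-pipe on an mm10 reference from Ensembl. Sublibraries were then combined into 1 matrix for each kit, without normalization. No version of split-pipe or of the annotation is given in the sources used here. Each listed sample is a sublibrary of pooled cells, and tissue samples were read from the cell tables, of which the other value columns were not used. The 10x gene expression and hashtag libraries were not analysed here.

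Cells between 500 and 25000 UMIs with no more than 15% of them mitochondrial were kept and classed by 10 marker lists, with at least 3 different markers of a list and at least 2 times as many as of any other. Classes of under 20 cells in a sample were left out of the counts over samples, and 3 ribosomal RNA genes out of all totals. The genes named are the 6 members, 23 listed pathway genes and the 10 genes outside the lists most like the members in log2(CPM + 1). The members and lists were chosen with earlier results of these data known. Thymic and other samples were described and not tested, since their labels do not give the groups. Counts per sample and class of the Mini library were fitted with edgeR 4.0.16 in R 4.3.3, and the fit was checked on simulated data. It used TMM, filterByExpr and the quasi-likelihood test with Benjamini-Hochberg adjustment at 0.05. DESeq2 1.42.0 was run as an alternative. Macrophages and neutrophils held too few Mini cells for the planned tests. Other settings tried were normalization, filters, marker number and factor, the UMI limit, the CPM denominator, means over cells, single sublibraries and left-out samples. The dendritic split, the left-out H2-Ea cells and samples, and leaving out CVS_S_5 were added after the data were seen. Gene models came from GENCODE M21. The rest used Python 3.11.15, numpy 2.4.6, scipy 1.17.1, pandas 2.3.3 and matplotlib 3.10.9.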

Additional observations from a re-analysis of the deposited data

Results flagged for a closer look

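Of 42 groups of 4 or 9 values of the members, 6 held a value far from the others by Dixon's criterion. Chance meets it in about 1 in 20 groups if all values of a group have the same spread. The values here rest on unlike numbers of cells, so this rate need not hold. H2-Eb1 in the B cells of WT sublibrary 9, which held 201 B cells, was 356 CPM beside 403 to 424 CPM in the other 8, and Ciita there was 677 CPM beside 605 to 623 CPM. H2-Eb1 in the thymocytes of thymic sample 1 was 5.58 CPM, and 11.3 to 12.1 CPM in samples 2 to 4. In Mini B cells, H2-DMa was 178 CPM in T-1-A (8 cells) and 48.5 to 63.8 CPM in the other samples, and Ciita was 946 CPM in T-2-B (11 cells) and 1304 to 1374 CPM in the others. Cd74 in the dendritic cells of Mini sample T-2-B (8 cells) was 5796 CPM, and 2371 to 2737 CPM in the others.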

How the results depend on the processing

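The count of members higher in all thymic than in all other B cell samples was 1, lay between 1 and 3 with single thymic samples left out, and was 4 without samples 1 and 2 together, where the lone sample 4 remained. For dendritic cells the 4 members higher and the 1 lower became 0 and 0 with at least 10 cells a sample, when 3 thymic samples joined. In the Mini fit, the 944 genes called between B cells and thymocytes became 1447 with no filter and 1807 with at least 4 markers. The 515 between dendritic and B cells became 311 with no filter, 174 with at least 4 markers and 121 to 450 with a sample left out. The 3 members called there became 1 with at least 4 markers and 0 to 3 with a sample left out, with 0 without T-2-A, which leaves 1 dendritic sample, assumed to vary like the other classes. The cause of the other moves was not tested. Of 150 alternative values of single members in all 3 contrasts, 142 kept direction and call, 8 lost the call and 0 reversed. Most of the 150 are from the contrasts against thymocytes, where the filter had set the direction. The total is therefore no measure of how firm the calls between dendritic and B cells are. The lost calls named in this report are all from that contrast. Of 336 alternative levels, 291 moved by less than 1 SD between samples. The 45 others included 21 of 48 with no factor between marker lists and 15 of 48 with all UMIs as the denominator. All 54 sublibrary values lay within 1 SD. No paired analysis was possible because the replicate numbers that the WT and Mini sublibraries share number pools of all samples of a kit. The Mini fit has the tissue sample as its block, which is not such a number. Few thymic B cells, dendritic cells and macrophages in a sample limit the precision of the thymic values.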

Other observations

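Monocytes and plasmacytoid dendritic cells of the other samples held pooled H2-Aa, Cd74 and Ciita between the levels of dendritic cells and T-lineage cells. Monocytes (1221 cells), blood-borne precursors of macrophages, had 85.8 CPM of H2-Aa, 464 CPM of Cd74 and 237 CPM of Ciita. By sample their H2-Aa ran from 7.59 CPM (CVS_S_5) over a median of 86.3 to 171 CPM (CVS_C_1). Ciita in monocytes was 7.59 CPM at the lowest (CVS_S_5), 205 at the median and 454 at the highest (CVS_C_4). Plasmacytoid dendritic cells (121 cells), the makers of interferon, had 179 CPM of H2-Aa, 712 CPM of Cd74 and 176 CPM of Ciita.

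Plasma cells (297 cells), the antibody-secreting descendants of B cells, had 15.5 CPM of H2-Aa and 9.96 CPM of Ciita, but 211 CPM of Cd74 (95% interval 182 to 244). In 6 samples with at least 20 plasma cells Cd74 was 18.3 to 256 CPM, and Ciita was 0 to 22.3 CPM. All T-lineage cells of the other samples together had 10.6 CPM of H2-Aa, 48.4 CPM of Cd74 and 20.6 CPM of Ciita. Natural killer cells (294 cells) had 3.37 CPM of H2-Aa (95% interval 0.408 to 12.2), 32.03 CPM of Cd74 and 8.43 CPM of Ciita.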
